A study of Homo sapiens with 9 samples.

Results

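MSI1 iCLIP sites in last exons are single nucleotides that the authors' iCLIP lists give as crosslinked to the RNA-binding protein Musashi1 (gene MSI1). They lie in the terminal exon of a gene, where mRNAs usually carry their 3′ untranslated region. A position was taken when at least 2 of the 3 deposited site lists held it on the same strand and it lay in the last exon, in transcript direction, of a gene with 2 or more exons. The rule found 13624 sites, which are 31.7% of the 42985 positions shared by at least 2 lists and 81.04% of the 16811 shared positions that lie in any exon. They lie in the last exons of 2181 of 18358 genes. Some genes share a last exon: 22 genes of the PCDHG cluster end in 1 common exon with 21 sites, and 47 sites in all belong to more than 1 gene. Of the last exons with a site, 138 overlap an exon of another gene.

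The sites come from U251, an established human glioblastoma line. iCLIP crosslinks protein to RNA with ultraviolet light, recovers the protein with an antibody, here a monoclonal against MSI1, and reads the crosslinked nucleotide from where cDNA synthesis stops. In all, 3 groups of 3 samples were used: RNA-seq of wild type control cells, RNA-seq of cells labelled Msi1 KD, and iCLIP of wild type cells. Neither the means of knockdown nor any treatment of the controls is in the labels, and no iCLIP sample without antibody or in knockdown cells was used here. The labels also say that biological replicates were combined for sequencing, so the spread that the tests use is between the deposited samples and may be technical.

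Musashi proteins bind single-stranded RNA through paired RNA recognition motifs, and are known mainly for binding 3′ untranslated regions and changing the translation or stability of the mRNA. MSI1 is abundant in neural stem and progenitor cells and in glioblastoma. A protein that alters translation alone need not change the amount of mRNA, which is what RNA-seq measures.

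Gene counts summed to between 32919299 and 47277016 reads per library. Gene levels are in CPM, read counts per 1000000 with edgeR's library scaling, always in the order of replicates 1, 2 and 3. MSI1 itself was at 16.1, 17.7 and 7.59 CPM in the controls, and the knockdowns had 3.15, 5.11 and 2.26. Every knockdown library was below every control library, with a log2 fold change of -1.98 (standard error 0.42; edgeR adjusted p = 0.0699, or 0.00279 with the replicate number as a block). Control replicate 3 stood apart on the principal component that held 62.5% of the variance, at 80.6, where the other 5 libraries lay between -40.9 and 10.4. All 10 markers of astroglia and glioma were above 1 CPM in at least 1 library. These 10 include CNP (up to 141.7), an enzyme that oligodendrocytes also make. The 3 endothelial, 3 epithelial and 5 leukocyte markers stayed below 1 CPM in each library. Of 5 fibroblast markers COL1A1, COL1A2 and PDGFRB were above it (COL1A2 reached 1419), of 5 neuronal markers SYT1, SNAP25 and GAD1 (GAD1 reached 42.2), and of 3 oligodendrocyte markers MBP (up to 2.07). Their part in the results was not tested.

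The lists differed widely in size. They held 1746795, 145718 and 208722 positions in iCLIP replicates 1, 2 and 3, of which 169895 (9.73%), 21071 (14.5%) and 42186 (20.2%) lay in last exons. Of the 13624 shared sites, 12706, 5384 and 10737 were in the lists of replicates 1, 2 and 3. Replicates 1 and 3 alone shared 8240 of them, replicates 1 and 2 alone 2887, and replicates 2 and 3 alone 918. All 3 lists held 1579. Just outside the rule were 204325 last-exon positions found in 1 list. Replicate 1, the largest list, therefore took part in most of the pairs that chose the sites.

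The authors' p-value of a site was mostly high, also for shared sites. Its median over the shared sites was 0.417, 0.254 and 0.285 in the lists of replicates 1, 2 and 3, against 0.502, 0.282 and 0.344 for last-exon positions in that list only. It was at most 0.05 for 16.7%, 6.22% and 8.62% of the shared sites, and for 5.14%, 3.21% and 3.62% of the positions in 1 list. These are the authors' own values and serve here as a description. Shared sites with such a p in each of at least 2 lists numbered 360.

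Last exons held far more shared sites for their length than other exons of the same kind of gene. Last exons make up 45.2% of the exon length, and held 468 shared sites per Mb, internal exons 44.0, and first exons 35.9. Genes with a single exon, which have no splice junction, held 612 per Mb. Each list showed the order of last above internal exons on its own: 5836 against 1913 positions per Mb in replicate 1, 724 against 129 in replicate 2, and 1449 against 219 in replicate 3. These densities describe the lists and were not tested, since the lists chose the sites.

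The list left out of a pair gives a view that the pair did not use. Of 2497 last-exon positions shared by replicates 2 and 3, the list of replicate 1 held 63.2% (95% Wilson interval 61.3 to 65.1, counting error only). Of 9819 positions shared by replicates 1 and 3, replicate 2 held 16.1% (15.4 to 16.8). Of 4466 shared by replicates 1 and 2, replicate 3 held 35.4% (34.0 to 36.8). In internal exons the same shares were 74.1% (66.1 to 80.7), 11.4% (9.47 to 13.7) and 27.0% (22.7 to 31.7). In positions outside exons on their strand they were 31.9% (30.9 to 33.0), 14.6% (14.0 to 15.1) and 34.8% (33.7 to 35.9). In genes with a single exon they were 71.3% (66.95 to 75.2), 31.25% (28.5 to 34.1) and 33.75% (30.8 to 36.8). Recovery in last exons was thus above that outside exons for replicate 1, and within a few percentage points of it for replicates 2 and 3. Against internal exons it was lower for replicate 1 and higher for replicates 2 and 3. Against single-exon genes it was lower for replicates 1 and 2 and close for replicate 3.

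The sites were concentrated in few genes. The last exon of SCD, the desaturase that makes monounsaturated fatty acids, held 950 sites, and that of CD44, a hyaluronan receptor of the cell surface, 776. Others among the 12 exons with most sites were ADAM19, a membrane metalloprotease, with 338, B4GALT1, a galactosyltransferase of the Golgi, with 188, and ARL6IP1, a membrane-shaping protein of the endoplasmic reticulum, with 184. TIMP2, an inhibitor of matrix metalloproteases, had 175 and DCBLD2, a transmembrane protein with a discoidin domain, 162. TTYH3, a membrane protein of the tweety family, had 158. CANX, the lectin chaperone calnexin, had 134, FADS2, a desaturase of polyunsaturated fatty acids, 131, and ABHD2, a lipase, 117. At the other end, 1085 genes had a single site, 620 had 2 to 4, 339 had 5 to 19 and 137 had 20 or more. The 137 include the 22 PCDHG genes, each counted with the same 21 sites of their shared exon. The 10 exons with most sites held 26.2% of all sites and the 100 with most held 55.4%.

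**Figure D1:**
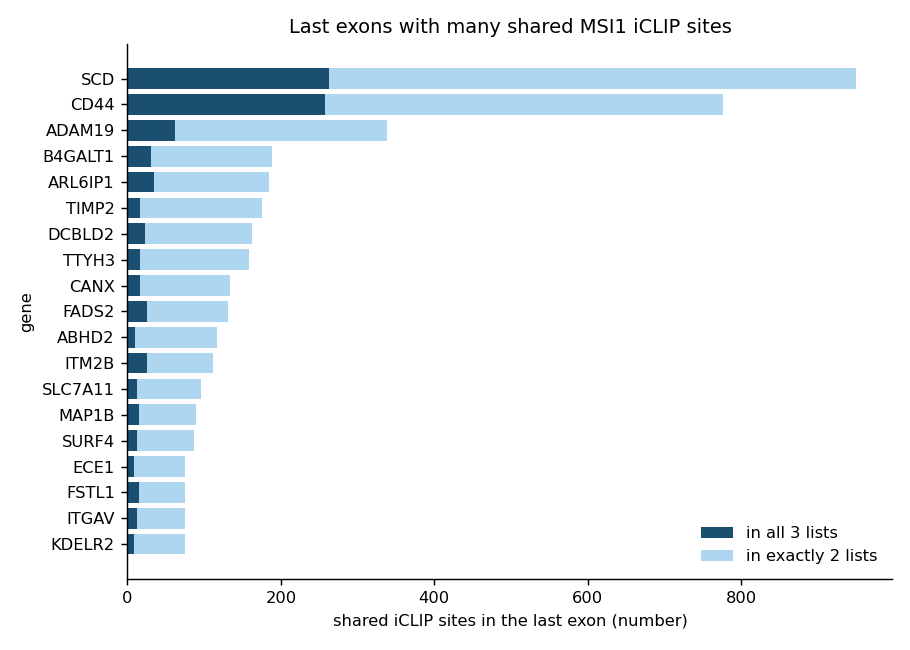
Number of shared iCLIP sites (x axis) in 19 of the 20 last exons with most of them (y axis, gene). Dark bars are sites in all 3 lists and light bars sites in exactly 2, and SCD and CD44 exceed the other exons shown with 950 and 776 sites.

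SCD and CD44 held many positions in each list and not through 1 library. The last exon of SCD (chromosome 10, 102110481 to 102114578, plus strand, hg18; exon 6 of 6, 4098 nt) held 2318, 633 and 829 positions in the lists of replicates 1, 2 and 3, and 263 of its 950 shared sites were in all 3. The last exon of CD44 (chromosome 11, 35207252 to 35210525, plus strand; 3274 nt) held 1370, 636 and 805 positions, with 257 in all 3 lists. ADAM19 (chromosome 5, 156836890 to 156840588, minus strand; 3699 nt) had 1366, 159 and 418, with 62 in all 3. In SCD, 37.0% of the positions listed by any replicate were shared, in CD44 43.6% and in ADAM19 21.9%.

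Per length, CD44 with 237 shared sites per kb and SCD with 232 were among the 5 densest of the last exons with at least 5 sites and 200 nt. B2M, the light chain of class I histocompatibility molecules, had 130 per kb (72 sites in 553 nt), and ITM2B, an integral membrane protein, 117 per kb (112 sites in 958 nt). Over all last exons with a site the density was 2.38 per kb, and 1.995 without the 3 exons with most sites. Last exons with a site had a median length of 2198 nt and those without one 975 nt.

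The lists of gene groups held sites unevenly. Of 42 genes of integrins and focal adhesion, the complexes that fix cells to the matrix, 23 had a last-exon site, with 1030 sites. CD44 held 776 of these, ITGAV, the alpha V integrin chain, 75, VCL, the adhesion protein vinculin, 42, and ITGB8, an integrin beta chain, 31. Of 46 extracellular matrix genes, 27 had a site: besides TIMP2, FSTL1, a secreted glycoprotein, had 75 and SPARC, a collagen-binding matrix protein, 73. Of 36 genes of the actin cytoskeleton 25 had a site (262 sites), led by RAC1, a small GTPase of lamellipodia, with 44. Of 25 genes of microtubules and intermediate filaments 13 had one, led by MAP1B, a microtubule-associated protein of growing axons, with 89, and DPYSL3, a collapsin response mediator protein, with 52. Of 29 genes of cholesterol and lipid synthesis 17 had one, and SCD and FADS2 held most of the 1211 sites of that list.

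The share of genes with a site was low in some other lists. In all, 6 of 72 cytosolic ribosomal protein genes had one, with 8 sites together, 3 of them in RPS23. Nuclear-encoded genes of oxidative phosphorylation had sites in 4 of 38, with 3 sites each in COX7C and NDUFA1. The ubiquitin and proteasome list had sites in 6 of 29 genes, and G1/S and DNA replication in 8 of 38, led by CCND1, cyclin D1, with 32. Shares near those of the adhesion and cytoskeleton lists were found in the chaperones with 17 of 31, glycolysis with 12 of 23 (PGK1, phosphoglycerate kinase, had 69 sites), cell-cell junctions and cadherins with 16 of 32, translation factors with 16 of 33, and RNA-binding and splicing factors with 28 of 49. Growth factor receptors and their signal chain also had 19 of 38, Notch and Wnt signalling 16 of 33, G2/M and mitosis 13 of 29, and apoptosis regulators 10 of 31. Of 19 genes named as Musashi targets in earlier literature, 7 had a site, with CD44 holding 776 of their 818 sites. Over all genes with 2 or more exons, expressed or not, 11.9% had a last-exon site. Of these lists only the ribosomal (8.33%) and oxidative phosphorylation (10.5%) genes lay below that share. The lists consist mostly of tested genes, such as 70 of the 72 ribosomal ones. Among tested genes in the highest of 4 expression classes the share was 43.1%. The ubiquitin (20.7%), G1/S (21.1%), apoptosis (32.3%) and earlier literature (36.8%) lists also lay below this value. The lists were not matched for expression. MSI1 had no site in its own last exon and its paralog MSI2 had 1.

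Whether a gene had a site moved with its expression, which these counts do not separate from binding. Of the tested genes with 2 or more exons, 1.45% had a site in the lowest of 4 equal classes of expression, 4.85% and 14.1% in the next, and 43.1% in the highest. Among last exons with a site, sites per kb went with the exon's level in control cells (Spearman's rho 0.61 over 2141 exons, a description across exons that share the same libraries), while the number of sites per exon had a rho of 0.41 with the level and of 0.11 with exon length.

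Level alone did not order the exons. The level is given in reads per kb of exon per 1000000 exon reads, as the mean of 3 controls ± SD. ACTB, cytoplasmic beta actin, had the most abundant last exon, at 5211 ± 1018, and 17 sites. TMSB4X, the actin-binding thymosin beta 4, was at 2916 ± 350 with 1 site, and GAPDH, a glycolytic enzyme, at 2485 ± 996 with 5. RPS2, RPL41 and FTL, at 2432 ± 681, 1972 ± 196 and 1469 ± 738, had none in exons of 210, 351 and 297 nt. Of the 20 most abundant last exons, 9 had no site. CD44 ranked 47 by level (626 ± 36.2) and SCD 187 (207 ± 41.4), yet both held more sites than any of the 20 most abundant last exons. Those 20 are short, ACTG1 being the longest with 861 nt, against 3274 nt for CD44 and 4098 nt for SCD. In sites per kb both also lay above B2M, which is among those 20. The part of exon length in these counts was not tested.

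**Figure D2:**
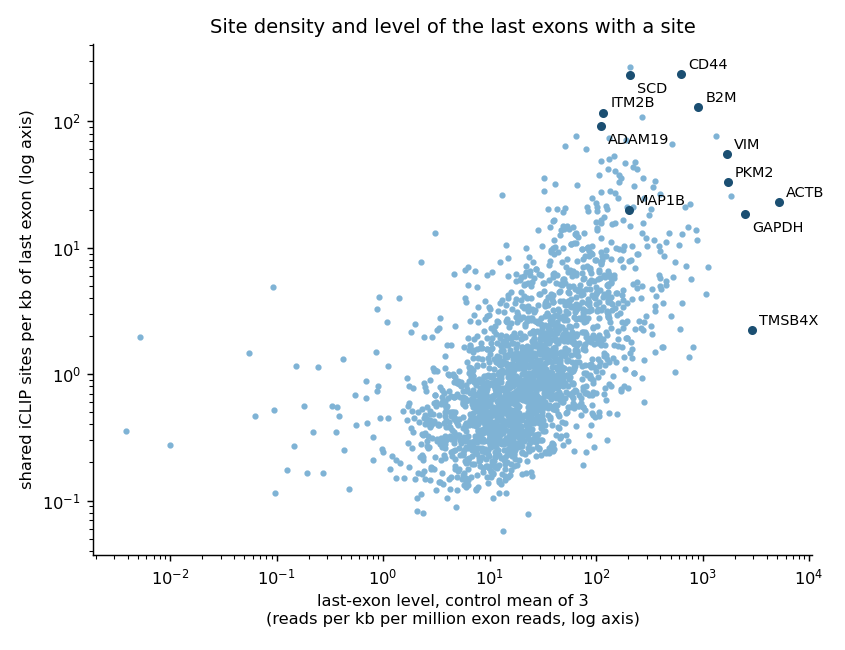
Shared iCLIP sites per kb of last exon (y axis, log) against the level of that exon in control cells (x axis, log, mean of 3 libraries in reads per kb per 1000000 exon reads), 1 point per last exon with a site. SCD and CD44 lie near the top, and TMSB4X has 1 site at a level of 2916.

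The sites were spread along the whole exon, with the fewest at its start. The first 10% of the exon length held 4.17% of the shared sites, and the last 10% held 12.8%. The steps of 10% between held from 9.15% to 12.6%, the latter from 20% to 30% of the length and close to the share at the end. Weighting each exon equally gave 4.61% in the first 10% and 14.3% in the last, and leaving out the 3 exons with most sites gave 4.08% and 13.2%. Positions in the same exons that only 1 list held were at 7.21% in the first 10% and 9.61% in the last. In these steps the high share at the end was therefore seen in the shared sites and not in those of 1 list. The low share at the start was seen in both. On the finer scale given below, positions in 1 list also became denser towards the end. Without iCLIP replicate 1, the sites shared by the other lists had 20.3% in the last 10%.

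Close to the exon end the density rose and then fell to nearly 0. From 501 to 1000 nt before the end there were 2.70 shared sites per kb, from 81 to 100 nt 5.76, and from 51 to 60 nt 10.6. From 41 to 50 nt there were 8.08 per kb, from 31 to 40 nt 0.65, and in the final 30 nt a single site. Without the 3 exons with most sites the value at 51 to 60 nt was 9.95 per kb. Positions in 1 list showed a rise too, from 27.6 per kb at 501 to 1000 nt to 44.4 at 51 to 60 nt, and fell to 4.88 at 31 to 40 nt. The labels give reads of 50 nt, and the part of read length in the empty final stretch was not tested. The exon end is that of the deposited annotation, and transcripts that end earlier or later are not told apart.

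**Figure D3:**
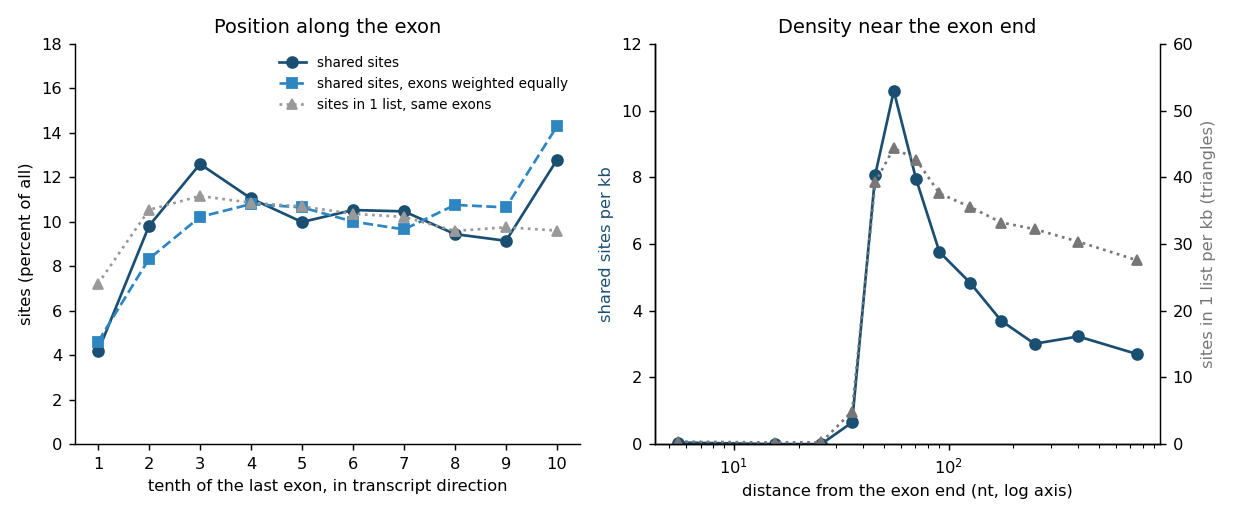
Left, percent of sites (y axis) in each 10% of the last exon (x axis) for shared sites, shared sites with exons weighted equally, and positions in 1 list in the same exons. Right, sites per kb against distance from the exon end (log axis), shared sites on the left scale and positions in 1 list on the right scale; both peak at 51 to 60 nt, at 10.6 and 44.4 per kb.

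Shared sites lay close together. The median distance between neighbouring sites of an exon was 9 nt over 11471 pairs, 21.2% of neighbours were 1 nt apart and 65.3% at most 30 nt. In the 618 exons with only 2 to 4 sites, the median over pairs was 262 nt, and 21.5% of neighbours were at most 30 nt apart. Even spacing would give a median over exons of 679 nt. Sites placed at random would also tend to lie closer than that, so the difference alone does not measure clustering. Joining neighbours at most 30 nt apart into clusters of at least 3 sites gave 792 clusters in 343 last exons, with 55.7% of all sites. The median cluster had 4 sites over 30 nt.

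Of the 5 largest clusters, those described here lay in SCD and CD44. A run of 470 sites in SCD spanned 1549 nt (chromosome 10, 102110629 to 102112177, beginning 149 nt into the exon), so that 30.3% of its nucleotides were shared sites. CD44 held clusters of 192 sites over 648 nt (chromosome 11, 35208071 to 35208718) and of 181 over 691 nt (35209121 to 35209811). SCD held a further one of 191 sites over 716 nt (102112690 to 102113405). Where sites are this dense, joining neighbours at most 30 nt apart gives long runs. Within the SCD exon the sites per 100 nt still ranged from 4 to 50. Read counts per site were not used, so narrow peaks within a run were not looked for.

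The exons differed in how the sites fell. Counted in bins of 100 nt from the exon start, all 41 bins of SCD, all 33 of CD44 and all 37 of ADAM19 held at least 1 site. The median bin had 22 sites in SCD, 25 in CD44 and 7 in ADAM19, where the fullest bin had 28. B4GALT1 had sites in 28 of 30 bins with a median of 4, and ARL6IP1 in 16 of 18 with a median of 6.5. In CANX, 67.2% of sites lay in the first 50% of the length and the largest gap was 482 nt. In MAP1B, 13.5% lay in the first 50% and 43.8% in the last 10%. TIMP2 had 0.571% of its sites in the last 10%, and B2M and ITM2B had 0%. The exons of B2M and ITM2B are short (553 and 958 nt), so part of their last 10% is the nearly empty stretch at the exon end.

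**Figure D4:**
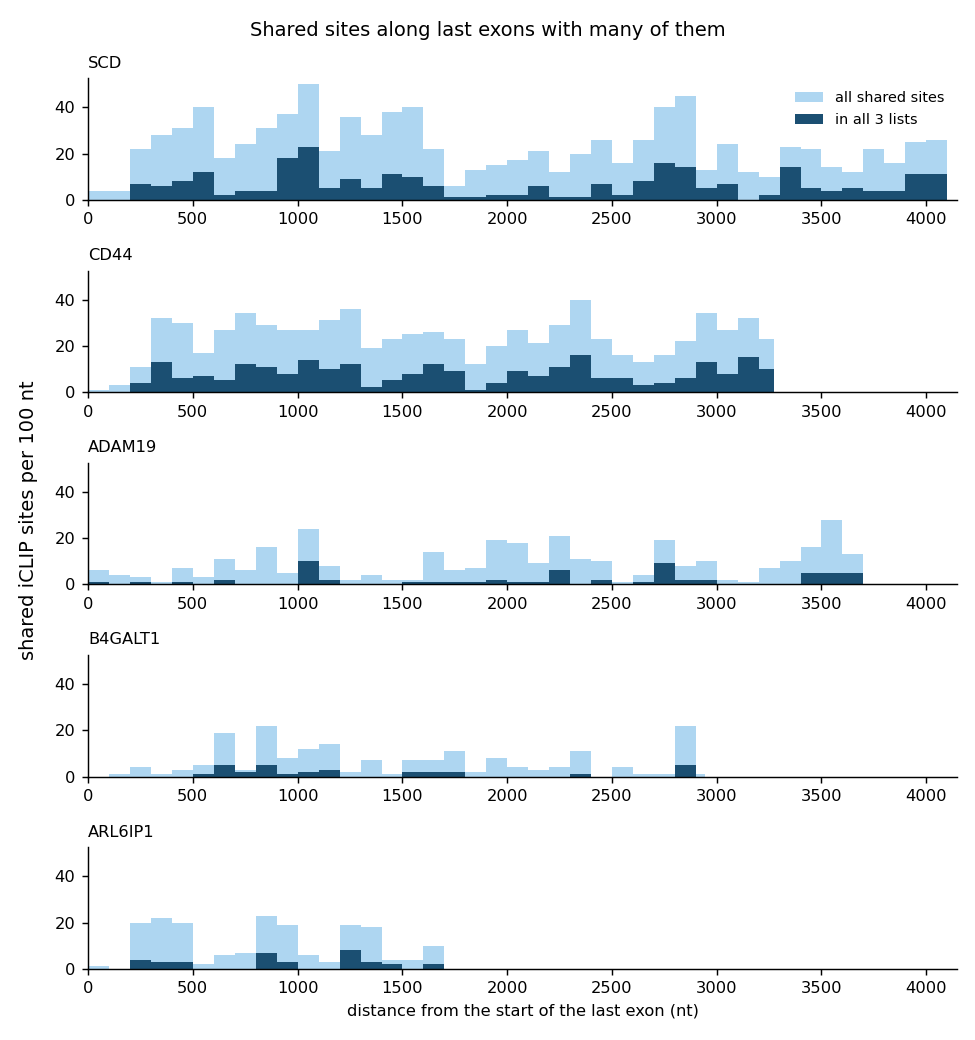
Shared iCLIP sites per 100 nt (y axis) against the distance from the start of the last exon (x axis, nt) in 5 of the 6 last exons with most sites. Light bars are all shared sites and dark bars those in all 3 lists; in SCD, CD44 and ADAM19 every bin holds a site.

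The knockdown compares mRNA levels of these genes in control and Msi1 KD cells, and played no part in choosing the sites. SCD and CD44, with the most sites, did not pass the test. SCD was at 1225, 1657 and 1207 CPM in the controls, and the knockdowns had 1355, 1800 and 1629, so the groups overlap (log2 fold change 0.23, standard error 0.18, adjusted p = 0.641 with edgeR). CD44 was at 3938, 3671 and 3710 against 3536, 3105 and 3273, each knockdown library below each control library (-0.19, standard error 0.12, adjusted p = 0.514).

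Of the 12 genes with most sites, 0 passed the unblocked edgeR test, 2 had an unadjusted p below 0.05, 0 passed with DESeq2, and 5 passed edgeR with the replicate number as a block. With the block, DCBLD2 was higher by 0.57 on the log2 scale (edgeR adjusted p = 0.00525, or 0.0908 unblocked), and its knockdown values of 2627, 2405 and 2733 CPM all exceeded the control values of 1698, 1560 and 1977. In the same fit B4GALT1 was higher by 0.29 (edgeR adjusted p = 0.0339) and FADS2 by 0.77 (edgeR adjusted p = 0.0435). The values of FADS2 overlapped between groups, and its unblocked log2 fold change of 0.69 was 0.40 without knockdown replicate 2, 0.44 without control replicate 3 and 1.08 without control replicate 2. DCBLD2 also passed unblocked without control replicate 3 (0.73, edgeR adjusted p = 0.00826). ARL6IP1 fell by 0.52 (edgeR adjusted p = 0.0114), at 573, 468 and 536 CPM against 781, 626 and 866 in controls. These changes thus went in both directions.

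Among all genes with a last-exon site, 2162 were tested and 72 (3.33%) passed the adjusted threshold of 0.05, 37 higher and 35 lower in the knockdown. Over all 13856 genes tested, 1.67% passed, 0.772% higher and 0.902% lower, and over genes with 2 or more exons and no last-exon site 1.38%. With the scaling of DESeq2's size factors, 58 passed, 36 higher and 22 lower. These counts depend on single libraries. Without control replicate 3, 279 genes with a site passed and all 72 were among them, while without control replicate 1 or 2, 4 and 2 passed, and without knockdown replicate 1, 2 or 3, 0, 1 and 1. Over all genes tested, the counts in the same order were 1028, 10 and 9, and 0, 4 and 4. Without knockdown replicate 1, 13.6% of genes with a site and 9.44% of all genes had an unadjusted p below 0.05. With the replicate block 618 (28.6%) passed, 262 higher and 356 lower, against 17.3% of all genes (7.04% higher and 10.3% lower), and all 72 kept their call and sign. DESeq2 called 182, 104 higher and 78 lower, against 5.06% of all genes it tested (2.83% higher and 2.24% lower).

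Genes with sites are more highly expressed, so the share that passes is also given by class of expression. In the highest of the 4 expression classes 3.39% of 1473 genes with a site passed, against 1.64% of 1949 genes with 2 or more exons and no site. In the class below these were 4.37% of 481 and 1.67% of 2928. The 2 lower classes had few genes with a site. There the shares were 0.613% of 163 (1 gene) against 1.53% of 3195, and 0% of 45 against 0.752% of 3057. With the replicate block the shares from the highest class down were 29.7%, 29.3%, 22.7% and 6.67% with a site. Without a site they were 25.0%, 18.4%, 14.2% and 7.69%. The unblocked share did not rise steadily with the number of sites: 2.13% of genes with 1 site, 4.86% with 2 to 4, 4.48% with 5 to 19 and 3.03% with 20 or more. With the block the shares of these groups were 26.2%, 30.8%, 27.8% and 40.15%. The last of these groups counts PCDHG genes separately although they share 1 last exon and its sites. Control and knockdown values did not overlap for 607 (28.1%) of the genes with a site, against 22.8% of all genes. The median log2 fold change was -0.06 for genes with a site and -0.04 for all genes tested, and without control replicate 3 it was 0.02 and -0.01. No test of these differences between groups of genes was made.

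The largest rises among genes with a site were in genes with at most 10 sites, where the median gene with a site had 2. TMEM64, a transmembrane protein with 1 site, went from 11.4, 8.20 and 12.6 CPM in controls to 59.7, 48.9 and 55.3 (log2 fold change 2.35, standard error 0.21, edgeR adjusted p = 0.0085). LPP, a zyxin-family protein of focal adhesions with 5 sites, went from 66.9, 70.5 and 83.8 to 327, 297 and 346 (2.13, standard error 0.14, adjusted p = 0.00478). UHMK1, a kinase with 3 sites, rose by 2.00, and ETV1, an ETS transcription factor with 2, by 1.62. SMAD5, a transducer of BMP signals, and TGFBR1, a TGF-beta receptor, each with 4 sites, rose by 1.52 and 1.503, and ARL6IP6, with 10 sites, by 1.52. For each of these genes the knockdown libraries all lay above the controls.

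The largest falls were in genes with 1 to 12 sites. PCDH20, a protocadherin with 2 sites, went from 197, 287 and 277 CPM in controls to 49.6, 60.01 and 66.1 (log2 fold change -2.12, standard error 0.20, edgeR adjusted p = 0.00873). MEST, an imprinted gene with 2 sites, went from 614, 497 and 616 to 176, 139 and 196 (-1.76, standard error 0.17, adjusted p = 0.00931). ITGB1, the beta 1 integrin chain with 7 sites, went from 627, 549 and 913 to 277, 216 and 281 (-1.43, standard error 0.22, adjusted p = 0.0302). SGPP1, a sphingosine phosphate phosphatase, CCDC117, MED1, a Mediator subunit, and PMAIP1, the proapoptotic protein NOXA, with 1 site each, had log2 fold changes of -1.67, -1.58, -1.51 and -1.47. C5orf15, with 12 sites, fell by 1.35.

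Of the 132 tested genes with 20 or more sites, among them PCDHG genes with 1 shared exon, 3 rose and 1 fell. The genes that rose or fell were singled out after their values were seen. CLIC4, a chloride channel family protein with 46 sites, was at 331, 319 and 389 CPM in controls and 689, 610 and 858 in knockdowns (log2 fold change 1.05, standard error 0.17, edgeR adjusted p = 0.0333). IGFBP5, a binding protein of insulin-like growth factors with 28 sites, was at 385, 238 and 239 against 783, 736 and 795 (1.43, standard error 0.21, adjusted p = 0.0279). CDK2AP1, a partner of cyclin-dependent kinase 2 with 38 sites, was at 237, 200.9 and 205 against 349, 328 and 376 (0.71, standard error 0.13, adjusted p = 0.0462). MAP1B, with 89 sites, was at 2889, 2674 and 2713 against 1829, 1588 and 1663 (-0.70, standard error 0.12, adjusted p = 0.0391). In these genes control and knockdown libraries did not overlap.

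**Figure D5:**
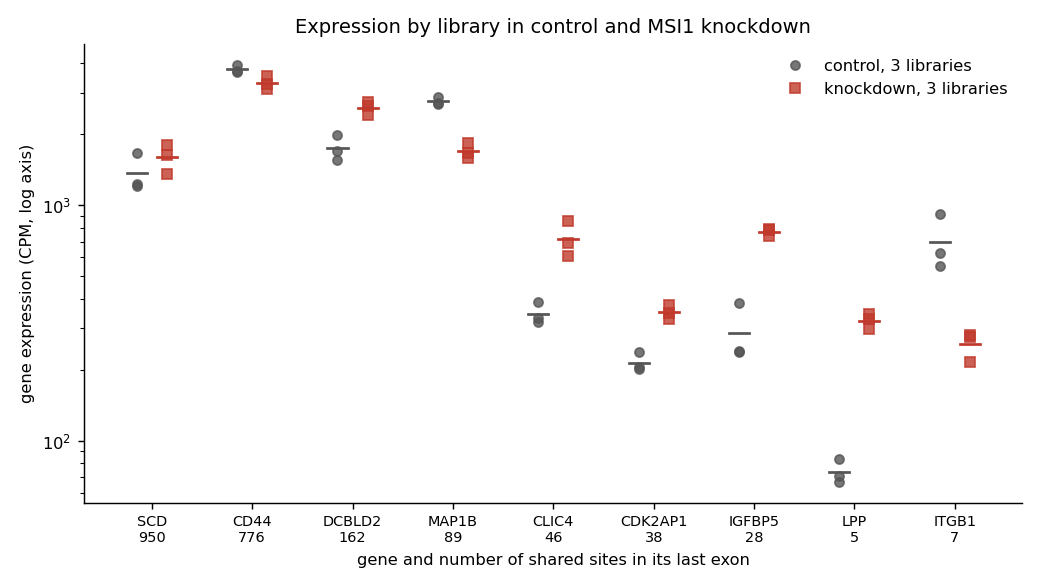
Expression in CPM (y axis, log) of 9 genes (x axis, with the number of shared sites in the last exon) in 3 control libraries (circles) and 3 knockdown libraries (squares), with short lines at the group means. SCD overlaps between groups, while MAP1B and ITGB1 lie lower and CLIC4, CDK2AP1, IGFBP5 and LPP higher in each knockdown library.

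Grouped by function, few genes with a site passed in any list. Of 23 tested genes of integrins and focal adhesion with a site, LPP and CAV2, a caveolin (log2 fold change 1.12, edgeR adjusted p = 0.0449), rose, and ITGB1 and PTK2, focal adhesion kinase (-1.02, adjusted p = 0.03), fell. The median of the 23 was 0.27 on the log2 scale, and with the replicate block 7 rose and 4 fell. Of 27 extracellular matrix genes with a site, VCAN, the proteoglycan versican, rose (1.12, adjusted p = 0.0149) and none fell, with a median of 0.23; with the block 9 rose and 4 fell. In cell-cell junctions and cadherins 2 of 16 fell, PCDH20 and CADM1, an adhesion molecule (-0.995, adjusted p = 0.034), and with the block 4 rose and 4 fell. In cholesterol and lipid synthesis 2 of 17 rose, INSIG1, a sterol sensor (0.85, adjusted p = 0.0421), and SC4MOL, a sterol oxidase (1.06, adjusted p = 0.0178), and the median was 0.44. With the replicate block 8 of these 17 rose and 0 fell, where 12.1% of all genes with a site rose and 16.5% fell. Over all 29 genes of that list, with or without a site, the median was 0.45. INSIG1 had 7 sites and SC4MOL 2.

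Other lists gave single calls or none. RDX, the membrane linker radixin, rose among 25 actin genes with a site, and MAP1B fell among 13 genes of microtubules and intermediate filaments. HSP90AB1 fell among 17 chaperones (-1.11), USP7 among 6 of ubiquitin and proteasome (-0.87), and PMAIP1 and XIAP (-1.11) among 10 apoptosis regulators. TGFBR1 rose and YWHAZ, a 14-3-3 protein (-1.26), fell among 19 genes of growth factor receptors and their signal chain. TGFBR1 was also the single call among 7 genes named as Musashi targets in earlier literature. With the block 4 actin genes rose and 4 fell, 4 chaperones rose and 2 fell, 3 apoptosis regulators rose and 3 fell, and 3 genes of the growth factor list rose and 5 fell. Genes with a site in ribosomal proteins, translation factors, RNA-binding and splicing factors, glycolysis, both cell cycle lists, Notch and Wnt signalling and oxidative phosphorylation gave 0 calls in the unblocked edgeR test. Of the 103 tested genes with a site in these lists, 11 (10.7%) had an unadjusted p below 0.05, against 21.6% of all genes with a site, and 4 passed with DESeq2. In the blocked fit these lists gave 0 to 4 calls in each direction. In Notch and Wnt signalling 2 of 16 genes with a site rose and 4 fell in that fit. Among the falls were DKK1 (-0.54, edgeR adjusted p = 0.0077) and SFRP1 (-0.29, edgeR adjusted p = 0.0324), secreted Wnt antagonists with 9 and 33 sites.

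Use of the last exon itself, as its share of the reads of its gene, was compared between control and knockdown. Of 2096 tested last exons with a site, 0 passed edgeR's diffSpliceDGE test at an adjusted p of 0.05 with or without the replicate block, and 1 and 11 were below 0.05 unadjusted. Over all 10942 last exons tested, 0% passed unblocked and 0.00914% blocked, and 0.174% and 0.896% were below 0.05 unadjusted. Among exons with a site the lowest p was that of MXRA7, with 2 sites, whose last exon took 15.0% ± 0.35 (SD, n = 3) of the reads in controls and 7.996% ± 0.51 in knockdowns (diffSpliceDGE adjusted p = 1, or 0.599 blocked). RPL27 and MYO5A, with 1 and 2 sites, followed, at 6.44% ± 2.46 against 9.16% ± 0.85 and 28.1% ± 0.97 against 38.5% ± 1.46. Of the exons with most sites, SCD took 75.3% ± 2.15 in controls and 75.6% ± 1.47 in knockdowns, and CD44 59.6% ± 5.22 and 59.7% ± 3.20.

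The median share of the last exon was 49.0%, 48.5% and 54.5% in the controls against 50.96%, 49.0% and 51.7% in the knockdowns for genes with a site, and 36.8%, 36.1% and 40.1% against 37.9%, 36.5% and 38.5% for those without. The test gave few low p-values, so 0 calls do not show that usage stayed the same. The ranges of controls and knockdowns overlapped in both sets, and control replicate 3 was highest in both.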

How the data were processed

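For each RNA-seq library the authors deposited unnormalized gene and exon read counts, and for each iCLIP library single-nucleotide sites, each with a p-value. Per the submitters' processing notes, coordinates are hg18. Not given in the sources used here: aligner, counter, strand setting and site caller, so overlapping genes cannot be told apart. The sites, gene lists and comparisons were chosen with earlier results of these data known. Positions are counted from 1. No genome of build hg18 was used here, so no sequence is given.

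Counts were tested with edgeR 4.0.16 in R 4.3.3 (quasi-likelihood, TMM, filterByExpr, Benjamini-Hochberg over all genes tested, threshold 0.05, 4 residual degrees of freedom), and exon usage with diffSpliceDGE, both tried on simulated data. DESeq2 1.42.0 was an alternative. CPM are edgeR's. Same-numbered control and knockdown libraries deviated together (correlations 0.318, 0.732 and 0.751, all above 0.1), but control 1 deviated more with knockdown 2 (0.494). No methods text states pairs. The numbers in the titles were taken as pairs on these correlations, which come from the same counts. Blocked values (2 residual degrees of freedom) are given where a call changes. Named genes are MSI1, MSI2, the 12 last exons with most sites, the 5 densest, the 5 largest clusters, up to 8 rises and 8 falls whose groups do not overlap at a mean log2 CPM of 2 or more, up to 4 genes per list with most sites, and the 3 lowest p of usage. Others were named after their values were seen. Some genes that the rule names are not reported here.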

Additional observations from a re-analysis of the deposited data

How the results depend on the processing

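The count of genes with a site that changed in the knockdown, 72, and that over all genes, 232, became 618 and 2398 with the replicate block, 182 and 715 with DESeq2, and 660 and 2658 with DESeq2 and the block, an alternative chosen after seeing the data. Leaving out 1 library gave 0 to 279 and 0 to 1028, with fewer samples in each such fit. DESeq2's size factors gave 58 and 191, and no filter on low counts 62 and 202. The share of the called genes with a site that were higher was 51.4%, and 62.1% with size factors, 61.3% without the filter and 42.4% with the block. With sites in all 3 lists 11 of 266 genes were called, and with the authors' p at most 0.05 in each list counted, 2 of 65. The usage count was 0 under each alternative run, which says nothing about stability, since 0.174% of last exons had an unadjusted p below 0.05. DESeq2 was not run on exon usage.

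The 13624 sites became 1579 with all 3 lists and 360 with the p limit, and 2497 to 9819 with 1 iCLIP list left out. The share in clusters, 55.7%, became 64.3% in all 3 lists, 44.1% and 60.9% with neighbours joined at 10 and 50 nt, and 50.5% to 57.0% with 1 list left out. The share in the last 10% of the exon, 12.8%, became 15.9% in all 3 lists and 11.6% to 20.3% with 1 list left out. Of 101 named genes tested, 18 were called, and 30 more were called with the block. Most of the 18 are the genes named as the largest rises and falls, all of which were called. The count thus follows largely from the naming and cannot be compared with the 1.67% of all genes called (17.3% with the block). Without control replicate 1 or 2 or any knockdown library, 15 to 18 of the 18 lost the call. No called fold change of a named gene changed sign under an alternative run. Most of these genes were named for groups that do not overlap, which leaves little room for a change of sign. Uncalled values near 0 did: B2M from -0.08 to 0.16 without control replicate 3 and ITM2B from 0.11 to -0.02 without control replicate 2. The median log2 fold change of all genes was -0.04, and 0.01 with size factors or DESeq2. The smaller iCLIP lists limit how many positions can be shared, and a site not listed is not shown to be unbound.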
